A study of Homo sapiens with 6 samples.

Results

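The genes described here encode the enzymes of cholesterol synthesis and of fatty acid synthesis, with the factors that switch both on. They are 40 named genes among the 21462 in the deposited table, 21 of sterol synthesis and 19 of fatty acid synthesis, taken by gene symbol. They were measured by poly(A) RNA sequencing in HO-1-N-1, a human line from an oral squamous cell carcinoma, grown in medium with fetal bovine serum. Cells of one group received an siRNA against Sam68 (libraries 1, 2 and 3) and cells of the other a control siRNA (libraries 1, 3 and 5), both with the same lipid transfection reagent. Sam68 is the RNA-binding protein encoded by KHDRBS1. Whether libraries of a group came from separate cultures is not labelled, and p-values therefore reflect the spread between libraries, which may be technical. The siRNA sequences and the harvest time are likewise not given in the sources used here.

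Cholesterol and fatty acids are both built from acetyl-CoA. In the sterol branch, acetyl-CoA is turned through mevalonate into isoprenoid units, joined to squalene, closed to lanosterol and trimmed to cholesterol. In the fatty acid branch, acetyl-CoA is carboxylated to malonyl-CoA, built into palmitate, and then lengthened by elongases and given double bonds by desaturases. The transcription factors SREBP1 and SREBP2, encoded by SREBF1 and SREBF2, drive both branches: they are held in the endoplasmic reticulum by INSIG proteins when sterol is plentiful and are cut free in the Golgi when it is scarce. SREBP2 is known to act mainly on sterol genes and SREBP1c mainly on fatty acid genes, and carcinoma cells are known for making much of their lipid themselves.

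The libraries held 16402923 to 17336651 counts with the Sam68 siRNA and 16099488 to 16798283 with the control siRNA. KHDRBS1 (ENSG00000121774, hg38 chr1:32013868-32060850, plus strand) had 26.4, 31.0 and 28.8 CPM (counts scaled to library size) in Sam68 siRNA libraries 1, 2 and 3, against 227, 205 and 184 CPM in control libraries 1, 3 and 5 (log2 fold change -2.84, SE 0.09, edgeR adjusted p = 1.56e-08). Control library 5 stood apart: its chi-square per degree of freedom was 32.0 against control 3 and 38.0 against control 1, with 6.18 between controls 1 and 3 and 2.96 to 6.78 among the Sam68 siRNA libraries. Mitochondrial transcripts took 2.27% of its counts, against 0.158% and 0.216% in controls 1 and 3 and 0.300% to 0.671% in the Sam68 siRNA libraries. Calls of the synthesis genes that change without control 5 are given both ways. Of the 9 markers of squamous epithelium none was at 0, and their summed level was 9425 to 9961 CPM with the Sam68 siRNA and 8865 to 9683 CPM with the control siRNA; among them KRT5 and TP63 rose (log2 fold change 0.20 and 0.33) and DSG3 fell (-0.65). The 7 leukocyte markers summed to 45.1 to 48.8 CPM with the Sam68 siRNA and 33.8 to 44.3 CPM in controls, so every Sam68 siRNA library lay above the controls. CD68, a lysosomal protein that many cell types express, made up most of it, and CD14 had 3.64, 4.29 and 4.60 CPM in Sam68 siRNA libraries 1, 2 and 3, against 3.39, 2.73 and 3.34 CPM in control libraries 1, 3 and 5; neither passed the test (log2 fold change 0.19 and 0.41, edgeR adjusted p = 0.233 and 0.133). NKG7 was at 0 throughout and the pan-leukocyte marker PTPRC at no more than 0.116 CPM in any library, and the part of leukocyte RNA in the results was not tested. Fibroblast and endothelial markers summed to no more than 7.47 and 3.76 CPM in any library, and markers of adipocytes and hepatocytes, cell types known for fat and cholesterol synthesis, to no more than 2.19 CPM.

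Lipid synthesis genes were called higher more often than lower with the Sam68 siRNA, by small amounts, and most did not pass the test. In bulk RNA, a change in RNA per cell and a change in the number of expressing cells cannot be told apart. Of the 39 members tested, 14 rose, 3 fell and 22 did not pass the test, an edgeR quasi-likelihood adjusted p below 0.05 over 12351 genes. The risers were 35.9% of the tested members, against 9.33% of all genes tested, and those that fell were 7.69%, against 9.76% of all genes. The median log2 fold change of the members (Sam68 siRNA over control siRNA, as throughout) was 0.13, against -0.0048 over all genes. Changes of the called members ranged from 1.14-fold to 1.54-fold, and only STARD4 and ELOVL7 passed 1.5-fold. The remaining member, ACACB, the acetyl-CoA carboxylase known from muscle and liver mitochondria, had 2 to 6 counts in a library and was not tested. It averaged 0.0792 ± 0.0391 TPM (counts scaled to transcript length and library size) with the Sam68 siRNA and 0.0583 ± 0.0264 TPM with the control siRNA (SD, n = 3 each).

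The sterol and fatty acid branches gave like counts. Among 18 sterol enzymes 6 rose and none fell by this test (33.3% and 0% of those tested), with a median log2 fold change of 0.13. None fell at an unadjusted p below 0.05 either, nor by DESeq2 or by limma on log2(TPM + 1), which called 6 and 4 rises. Among 17 tested fatty acid enzymes 6 rose and 2 fell (35.3% and 11.8%), with a median of 0.13. With the regulators and the sterol carrier included, 7 of 21 sterol members rose and 1 fell (median 0.13), and 7 of 18 tested fatty acid members rose and 2 fell (median 0.20). The difference between the branches was not tested. Every Sam68 siRNA library lay above every control for 10 sterol and 8 fatty acid members, 18 of the 40, where 19.3% of all tested genes did so; it lay below for 2 sterol and 3 fatty acid members, where 18.7% of all tested genes did so.

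**Figure D1:**
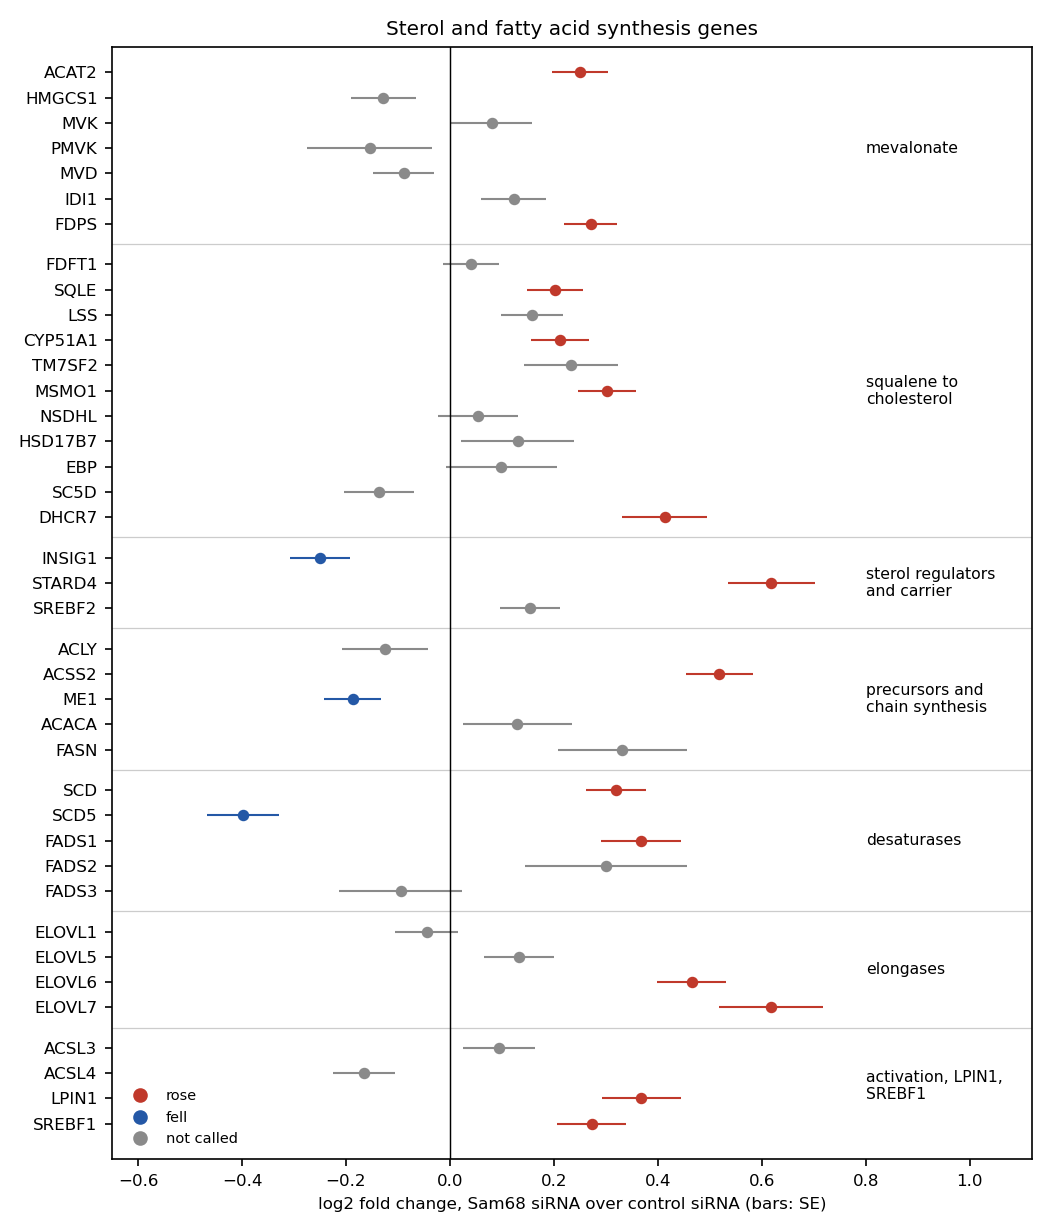
Log2 fold change (Sam68 siRNA over control siRNA, x axis) of the 39 tested members, grouped by role, with the SE as bars; red points rose, blue points fell and grey points did not pass an edgeR adjusted p of 0.05. STARD4 and ELOVL7 lie farthest to the right at 0.62, and SCD5 farthest to the left at -0.40.

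Levels per transcript length set the scale of these changes. SCD was the most abundant member, with 1322 ± 58.2 TPM with the Sam68 siRNA and 1055 ± 108 TPM with the control siRNA (SD, n = 3 each). FASN followed with 516 ± 14.3 TPM with the Sam68 siRNA and 407 ± 64.3 TPM with the control siRNA. FDFT1, the first enzyme committed to sterol, had 401.5 ± 9.02 TPM with the Sam68 siRNA and 389 ± 24.0 TPM with the control siRNA. At the other end stood FADS2 with 4.81 ± 0.0869 TPM with the Sam68 siRNA and 3.90 ± 1.09 TPM with the control siRNA, ahead of ACACB only. The summed level of the 21 sterol members was 3402, 3258 and 3230.3 TPM in Sam68 siRNA libraries 1, 2 and 3, against 3072, 3126 and 2828 TPM in control libraries 1, 3 and 5. That of the 19 fatty acid members was 3489.5, 3301 and 3502 TPM in Sam68 siRNA libraries, against 2841, 3166 and 2951 TPM in controls. In both sums the Sam68 siRNA libraries were all above the controls. SCD alone made up 38.0% to 38.9% of the fatty acid sum with the Sam68 siRNA and 32.8% to 37.1% with the control siRNA.

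**Figure D2:**
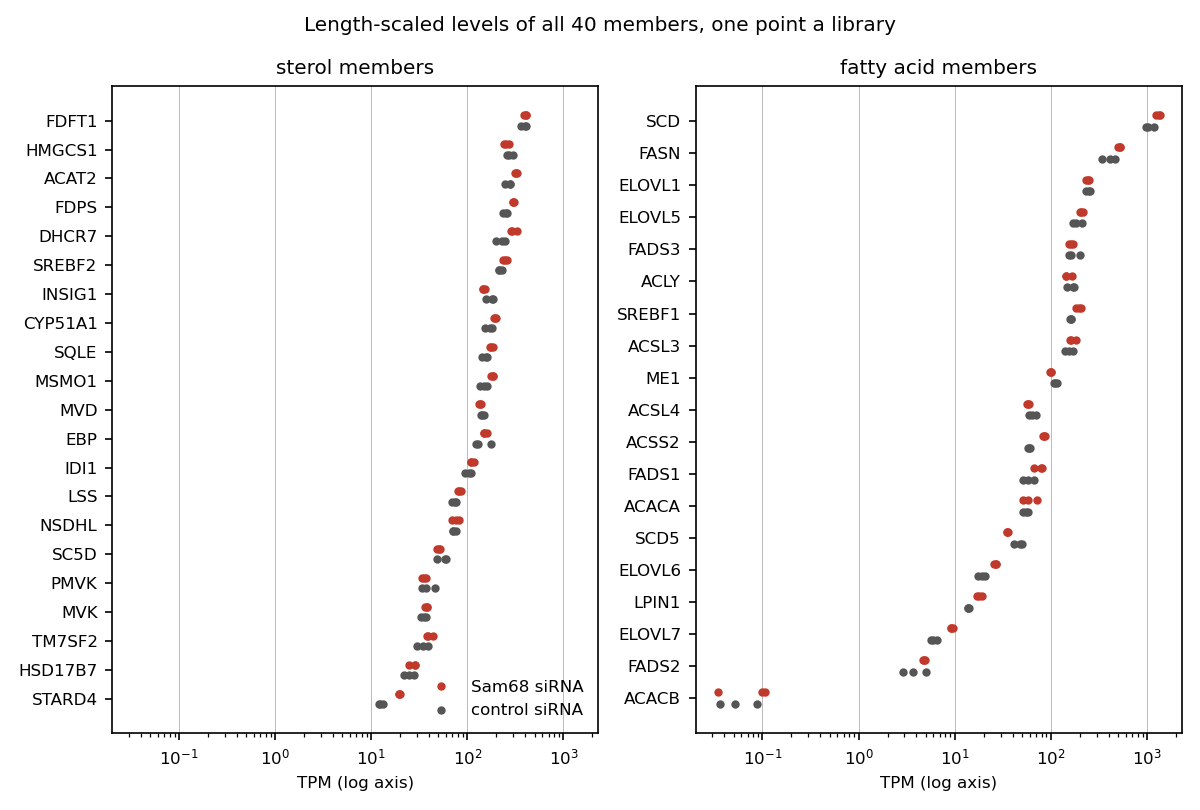
TPM on a log axis (x) for the 21 sterol members (left) and 19 fatty acid members (right), with 1 point a library, Sam68 siRNA in red above control siRNA in grey. SCD lies at the top right, with means of 1322 TPM with the Sam68 siRNA and 1055 TPM with the control siRNA, and ACACB at the bottom left, which averaged 0.0792 TPM with the Sam68 siRNA and 0.0583 TPM with the control siRNA.

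Of the 7 enzymes that lead from acetyl-CoA to farnesyl diphosphate, 2 rose. ACAT2, the cytosolic thiolase that joins acetyl-CoA units (ENSG00000120437, hg38 chr6:159762045-159779112), had 169, 170.4 and 160.2 CPM in Sam68 siRNA libraries 1, 2 and 3, against 144, 141 and 135 CPM in control libraries 1, 3 and 5. The groups did not overlap (log2 fold change 0.25, SE 0.05, edgeR adjusted p = 0.00864), but ACAT2 shares 615 bases with TCP1 on the opposite strand, whose counts were 329% of its own, and the strand setting of the counts is not given in the sources used here, so its level is uncertain. TCP1 itself did not pass the test (log2 fold change 0.03). FDPS, which makes farnesyl diphosphate, the branch point to sterols and other isoprenoids, had 187, 185 and 181 CPM with the Sam68 siRNA, against 155, 150.2 and 153 CPM in controls (log2 fold change 0.27, SE 0.05, edgeR adjusted p = 0.00402). All Sam68 siRNA libraries stood above all controls, though 8 annotated pseudogenes of FDPS could share reads with it. HMGCS1, the synthase that makes HMG-CoA and a textbook SREBP2 target, went the other way without passing the test: 517, 498 and 465 CPM in Sam68 siRNA libraries, against 521, 566 and 529.8 CPM in controls (log2 fold change -0.13, SE 0.06, edgeR adjusted p = 0.174). Its groups were apart by a narrow margin, with every Sam68 siRNA library below every control. The kinases MVK and PMVK, the decarboxylase MVD and the isomerase IDI1 had log2 fold changes of 0.08, -0.15, -0.09 and 0.12, and in each the groups overlapped. MVK shares 326 bases with MMAB on the other strand, which rose by 0.29 and held 98.4% as many counts, so the level of MVK is uncertain.

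From squalene to cholesterol, 4 of 11 enzymes rose. SQLE, the squalene epoxidase, had 199, 195 and 187 CPM with the Sam68 siRNA, against 173, 167 and 164 CPM with the control siRNA (log2 fold change 0.20, SE 0.05, edgeR adjusted p = 0.0230). CYP51A1, which removes the first methyl group from lanosterol, had 216, 218 and 222 CPM with the Sam68 siRNA, against 192, 196 and 179 CPM in controls (log2 fold change 0.21, SE 0.06, edgeR adjusted p = 0.0218); 3 pseudogenes of it are annotated. MSMO1, which oxidises the methyl groups at the next steps, had 171, 183 and 180.4 CPM with the Sam68 siRNA, against 143, 151 and 139 CPM in controls (log2 fold change 0.30, SE 0.06, edgeR adjusted p = 0.00383). These 3 genes changed by 1.15-fold to 1.23-fold with no overlap of the groups. DHCR7, which reduces 7-dehydrocholesterol to cholesterol (ENSG00000172893, hg38 chr11:71428193-71452868), changed more, with 444, 401 and 399.9 CPM in Sam68 siRNA libraries 1, 2 and 3, against 272, 328 and 335 CPM in control libraries 1, 3 and 5 (log2 fold change 0.41, SE 0.08, edgeR adjusted p = 0.00555). Library 1 was at the far end of both groups, the highest with the Sam68 siRNA and the lowest among controls. The cyclase LSS (log2 fold change 0.16) and the sterol reductase TM7SF2 (0.23) lay higher in every Sam68 siRNA library but missed the threshold (edgeR adjusted p = 0.0824 and 0.0920). TM7SF2 overlaps VPS51 by only 18 bases and ZNHIT2 by only 6. These neighbours held 662% and 138% as many counts in all, and whether shared reads add to the level of TM7SF2 was not tested. FDFT1, NSDHL, HSD17B7, EBP and SC5D, which carry out other steps, had log2 fold changes from -0.14 for SC5D to 0.13 for HSD17B7, with the groups overlapping.

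Among the sterol regulators and carrier, STARD4 rose, INSIG1 fell and SREBF2 did not pass the test. STARD4, a soluble protein that carries cholesterol between membranes (ENSG00000164211, hg38 chr5:111496033-111512590, minus strand), had 36.1, 38.5 and 36.8 CPM in Sam68 siRNA libraries 1, 2 and 3, against 23.4, 22.5 and 26.6 CPM in control libraries 1, 3 and 5. Its mean was 37.1 ± 1.22 CPM with the Sam68 siRNA and 24.2 ± 2.13 CPM with the control siRNA (SD, n = 3 each), 1.54-fold higher (log2 fold change 0.62, SE 0.08, edgeR adjusted p = 0.000585), the largest change among the members. INSIG1, which retains SREBP in the endoplasmic reticulum and is itself a known SREBP target (ENSG00000186480, hg38 chr7:155297776-155310235, plus strand), had 159.9, 158 and 155 CPM with the Sam68 siRNA, against 194, 193 and 175 CPM with the control siRNA. It fell 1.19-fold (log2 fold change -0.25, SE 0.06, edgeR adjusted p = 0.0120), with every Sam68 siRNA library below every control. Both genes are known to be induced through SREBP2, and here they differ in sign. SREBF2 itself had 519.9, 483 and 502 CPM with the Sam68 siRNA, against 434, 457 and 462 CPM in controls; the groups were apart, yet the change missed the threshold (log2 fold change 0.15, SE 0.06, edgeR adjusted p = 0.0844) and passed it without control 5 (log2 fold change 0.17, edgeR adjusted p = 0.0459).

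The promoters of STARD4 and INSIG1 are shown because the pair changed in opposite directions. They are read from RefSeq on GRCh38.p14 (250 bases before to 50 after the annotated start, 300 in all), 5′ to 3′ on the strand of the gene, with capitals marking the CCAAT box, the letters CCAAT or their complement ATTGG, where the factor NF-Y is known to act beside SREBP. STARD4 spans chr5:111512486-111512785 on the minus strand and INSIG1 chr7:155297628-155297927 on the plus strand.
STARD4: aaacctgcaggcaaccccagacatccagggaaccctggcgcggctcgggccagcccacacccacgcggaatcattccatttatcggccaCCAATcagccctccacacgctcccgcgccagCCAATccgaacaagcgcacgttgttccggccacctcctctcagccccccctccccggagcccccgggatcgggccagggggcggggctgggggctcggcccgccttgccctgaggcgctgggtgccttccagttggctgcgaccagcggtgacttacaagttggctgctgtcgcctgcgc
INSIG1: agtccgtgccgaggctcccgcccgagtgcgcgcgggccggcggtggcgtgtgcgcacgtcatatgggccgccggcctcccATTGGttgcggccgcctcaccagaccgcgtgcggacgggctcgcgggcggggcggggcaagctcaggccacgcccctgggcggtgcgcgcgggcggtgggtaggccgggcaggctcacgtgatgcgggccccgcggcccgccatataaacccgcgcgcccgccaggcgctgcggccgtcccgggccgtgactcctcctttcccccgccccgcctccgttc
STARD4 holds CCAAT boxes 161 and 130 bases before its start and INSIG1 holds 1 at 170 bases, in reverse orientation. The pair was picked for its opposite changes, and the part of this box in them was not tested.

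Of the 36 members with a promoter in that set, 15 of 18 sterol genes and 8 of 18 fatty acid genes held CCAAT on either strand, where 36.8% of the 9832 tested genes with a promoter did. By change, 6 of 12 members that rose, 2 of 3 that fell and 15 of 20 that were not called held it. GGGCGG, the GC box of SP1, was in 17 of 18 sterol and 15 of 18 fatty acid promoters and in 70.7% of all. CACGTG, an E-box, was in 3 of 18 sterol and 1 of 18 fatty acid promoters and in 10.2% of all. The sterol regulatory element, searched as TCACNCCAC on both strands, was in 1 of the 36, SREBF2, and in 1.03% of all promoters. Elements spelled in other ways were not searched, so a promoter without this match may still hold one. The 4 motifs were counted independently of each other. The SREBF2 match starts 133 bases before its start, and the stretch around it (GRCh38.p14 chr22:41832946-41833006, plus strand) is shown with the match in capitals because it is the single match among the members.
SREBF2: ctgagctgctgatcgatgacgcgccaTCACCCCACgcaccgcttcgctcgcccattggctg
These are letter matches in a fixed window at 1 annotated start per gene, and ACAT2, FDFT1, SQLE and FASN were not searched. For some genes that start is not the end of the span that was counted. The window of IDI1 lies outside its span, and those of LPIN1, FADS1, FADS2, ACLY, DHCR7 and ACSS2 lie well inside theirs. Other starts of these genes were not searched.

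**Figure D3:**
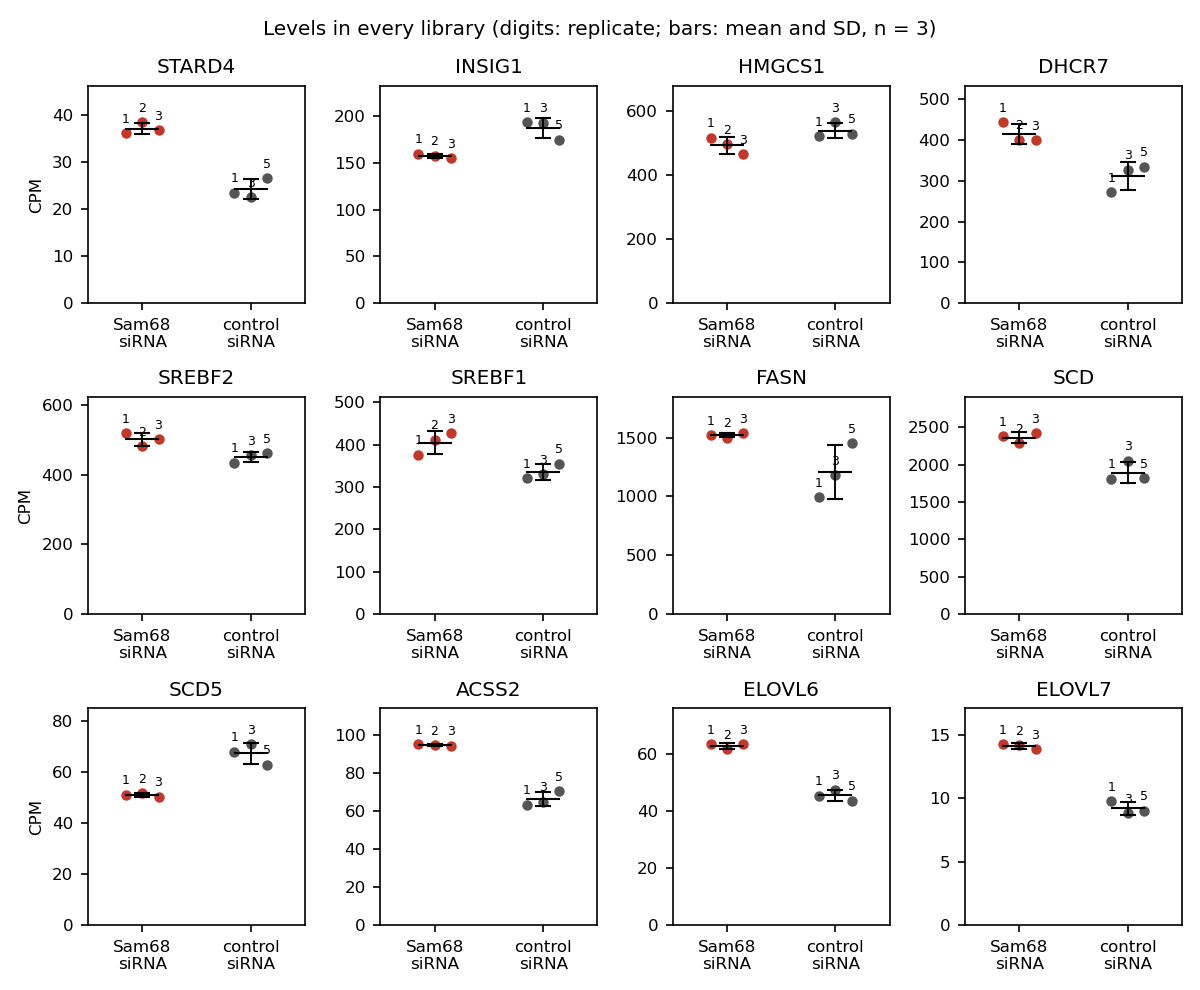
CPM from 0 (y axis) of 12 members in each library, Sam68 siRNA in red left of control siRNA in grey, with the replicate number above each point and the mean and SD as bars. INSIG1, HMGCS1 and SCD5 lie lower in every Sam68 siRNA library and the other 9 genes higher, and control 5 of FASN lies close to the Sam68 siRNA libraries.

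Of the 5 tested enzymes that supply acetyl-CoA and NADPH and build palmitate, 1 rose and 1 fell by the same test. ACSS2, which makes acetyl-CoA from acetate (ENSG00000131069, hg38 chr20:34872146-34927962), had 95.0, 94.4 and 94.2 CPM in Sam68 siRNA libraries 1, 2 and 3, against 63.2, 64.7 and 70.2 CPM in control libraries 1, 3 and 5. Its mean was 94.5 ± 0.387 CPM with the Sam68 siRNA and 66.0 ± 3.69 CPM with the control siRNA (SD, n = 3 each; log2 fold change 0.52, SE 0.06, edgeR adjusted p = 0.000396). ACLY, which makes acetyl-CoA from citrate, had a log2 fold change of -0.12 with overlapping groups (edgeR adjusted p = 0.326), and of -0.04 without control 5. ME1, malic enzyme, a source of NADPH, had 109, 115 and 114 CPM with the Sam68 siRNA, against 126, 129 and 130.5 CPM in controls (log2 fold change -0.19, SE 0.05, edgeR adjusted p = 0.0327), the smallest change among the called members. The carboxylase ACACA had a log2 fold change of 0.13 with overlapping groups.

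FASN, the synthase that builds palmitate (ENSG00000169710, hg38 chr17:82078338-82098294), gave different calls with and without control 5 and between tools. It had 1522, 1501 and 1538 CPM in Sam68 siRNA libraries 1, 2 and 3, against 992, 1179.7 and 1453 CPM in control libraries 1, 3 and 5. The SD was 18.8 CPM over the Sam68 siRNA libraries and 232 CPM over the controls, and control 5 came close to the Sam68 siRNA libraries without reaching them. With all libraries the change missed the threshold (log2 fold change 0.33, SE 0.12, edgeR adjusted p = 0.108). Without control 5 the log2 fold change was 0.49 with an edgeR adjusted p of 9.46e-05. DESeq2 called FASN with all 6 libraries (log2 fold change 0.33).

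Of the 5 desaturases, 2 rose and 1 fell, and the stearoyl-CoA desaturases SCD and SCD5 changed in opposite directions. SCD, the main one, which puts the double bond into oleate (ENSG00000099194, hg38 chr10:100347233-100364826, plus strand), had 2378, 2288 and 2421 CPM in Sam68 siRNA libraries, against 1811, 2050.5 and 1817 CPM in controls (log2 fold change 0.32, SE 0.06, edgeR adjusted p = 0.00304). SCD5, its relative known from brain and pancreas (ENSG00000145284, hg38 chr4:82629539-82798796, minus strand), had 51.3, 51.8 and 50.4 CPM with the Sam68 siRNA, against 68.2, 71.1 and 63.1 CPM with the control siRNA (log2 fold change -0.40, SE 0.07, edgeR adjusted p = 0.00247). In both genes the groups were apart. SCD has 1 annotated pseudogene that could share reads with it, and so has FADS2, while HSD17B7 of the sterol branch has 2. Per transcript length, SCD5 made up 2.60%, 2.73% and 2.52% of the summed TPM of SCD5 and SCD in the Sam68 siRNA libraries, against 4.46%, 4.12% and 4.12% in controls. FADS1, the delta-5 desaturase of polyunsaturated fatty acids, had 244, 213 and 243 CPM with the Sam68 siRNA, against 175, 199 and 168 CPM in controls (log2 fold change 0.37, SE 0.08, edgeR adjusted p = 0.00760). FADS2, the delta-6 desaturase, had a log2 fold change of 0.30 and did not pass (edgeR adjusted p = 0.202), with a value of 0.16 without control 5 (adjusted p = 0.446) and of 0.51 without control 3 (adjusted p = 0.0334). It lies across FADS1 and FEN1, whose counts are 2227% and 1232% of its own, so its level is uncertain. The counts of FADS2 were 4.49% of those of FADS1. FADS3 had a log2 fold change of -0.09 with overlapping groups, and of 0.07 without control 5.

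The promoters of SCD and SCD5 are shown in the same way as those above, from RefSeq on GRCh38.p14, because these relatives changed in opposite directions. SCD spans chr10:100346983-100347282 on the plus strand and SCD5 chr4:82798747-82799046 on the minus strand, and capitals again mark CCAAT or ATTGG.
SCD: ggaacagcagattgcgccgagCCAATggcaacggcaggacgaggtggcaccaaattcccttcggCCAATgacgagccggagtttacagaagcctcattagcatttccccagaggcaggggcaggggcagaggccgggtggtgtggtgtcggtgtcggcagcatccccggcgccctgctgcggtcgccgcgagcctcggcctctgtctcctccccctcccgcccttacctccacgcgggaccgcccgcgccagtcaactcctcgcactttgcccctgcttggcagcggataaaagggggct
SCD5: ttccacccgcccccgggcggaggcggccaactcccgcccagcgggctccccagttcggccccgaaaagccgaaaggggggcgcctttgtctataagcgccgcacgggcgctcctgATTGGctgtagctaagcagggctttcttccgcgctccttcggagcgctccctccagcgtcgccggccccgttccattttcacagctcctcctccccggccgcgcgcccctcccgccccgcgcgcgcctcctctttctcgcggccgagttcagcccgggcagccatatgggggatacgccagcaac
SCD holds the box 229 and 186 bases before its start and SCD5 once, reversed, at 135 bases.

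Of the 4 elongases, the 2 with the lowest TPM rose. ELOVL6, which lengthens palmitate to stearate (ENSG00000170522, hg38 chr4:110045846-110199199), had 63.3, 61.5 and 63.2 CPM in Sam68 siRNA libraries 1, 2 and 3, against 45.3, 47.4 and 43.5 CPM in control libraries 1, 3 and 5 (log2 fold change 0.47, SE 0.07, edgeR adjusted p = 0.000773). ELOVL7, which acts on longer saturated chains (ENSG00000164181, hg38 chr5:60751791-60844274), had 14.3, 14.2 and 13.9 CPM with the Sam68 siRNA, against 9.74, 8.83 and 9.01 CPM with the control siRNA (log2 fold change 0.62, SE 0.10, edgeR adjusted p = 0.00165). Both sets of groups were well apart. Per transcript length, ELOVL6 averaged 26.5 ± 0.877 TPM with the Sam68 siRNA and 19.2 ± 1.52 TPM with the control siRNA, and ELOVL7 averaged 9.27 ± 0.194 TPM with the Sam68 siRNA and 6.02 ± 0.427 TPM with the control siRNA (SD, n = 3 each). ELOVL1 and ELOVL5, at 189 to 247 TPM on average, had log2 fold changes of -0.04 and 0.13 with overlapping groups.

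Among the genes that use fatty acids, LPIN1, a phosphatidate phosphatase of triglyceride synthesis and a coregulator of transcription, had 42.4, 38.5 and 39.5 CPM with the Sam68 siRNA, against 30.5, 29.9 and 32.9 CPM in controls (log2 fold change 0.37, SE 0.08, edgeR adjusted p = 0.00685). The acyl-CoA synthetase ACSL3 had a log2 fold change of 0.09 with overlapping groups. ACSL4, which prefers arachidonate, had 109, 109 and 112 CPM with the Sam68 siRNA, against 132, 119 and 119.9 CPM in controls; the groups were apart and the change missed the threshold (log2 fold change -0.17, SE 0.06, edgeR adjusted p = 0.0752). SREBF1, the regulator of this branch (ENSG00000072310, hg38 chr17:17810399-17837011), had 376, 412 and 427 CPM in Sam68 siRNA libraries 1, 2 and 3, against 320.3, 329.6 and 355 CPM in control libraries 1, 3 and 5. It rose 1.21-fold with every Sam68 siRNA library above every control (log2 fold change 0.27, SE 0.07, edgeR adjusted p = 0.0150). The gene-level count does not separate its SREBP1a and SREBP1c transcripts, and RAI1, which shares 1055 bases on the other strand, held 28.8% as many counts with a log2 fold change of 0.06. By TPM, SREBF1 was 41.6%, 45.7% and 45.6% of SREBF1 plus SREBF2 with the Sam68 siRNA, against 42.1%, 41.6% and 43.1% with the control siRNA, and these shares overlapped.

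Calls differed in how far they rested on single libraries. Of the 17 called members, 11 were called with any 1 library left out (10 of those that rose, and SCD5): FDPS, MSMO1, DHCR7, STARD4, ACSS2, SCD, FADS1, ELOVL6, ELOVL7 and LPIN1 besides SCD5. The other 6 lost the call in at least 1 such fit. ACAT2 lost it without Sam68 siRNA library 2 (edgeR adjusted p = 0.0579). CYP51A1 lost it without any 1 of the Sam68 siRNA libraries (up to 0.102), SQLE without those or control 3 (up to 0.0982), and SREBF1 and INSIG1 without Sam68 siRNA library 2 or 3 or control 3 (up to 0.0951 and 0.0578). ME1 kept it only without control 1 (up to 0.118). Without control 5 the sterol members gave 9 that rose, with LSS (edgeR adjusted p = 0.0302) and SREBF2 added, and 2 that fell, with SC5D added (log2 fold change -0.20, adjusted p = 0.0318). The fatty acid members then gave 8 that rose, with FASN added, and 1 that fell, as ME1 lost its call (adjusted p = 0.0523). Without control 1, EBP passed as well (log2 fold change 0.25, adjusted p = 0.0306), while without control 5 its value was 0.04. Among members not called, FADS3 and ELOVL1 turned sign without control 5 (to 0.07 and 0.01), MVK moved to 0.12, FDFT1 to 0.02 and HSD17B7 to 0.08, and the values of EBP, ACLY and FADS2 also moved by over 1.5 times. The median spread over libraries was 3.34% of the mean for sterol members and 2.72% for tested fatty acid members with the Sam68 siRNA, and 4.86% and 6.21% with the control siRNA.

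**Figure D4:**
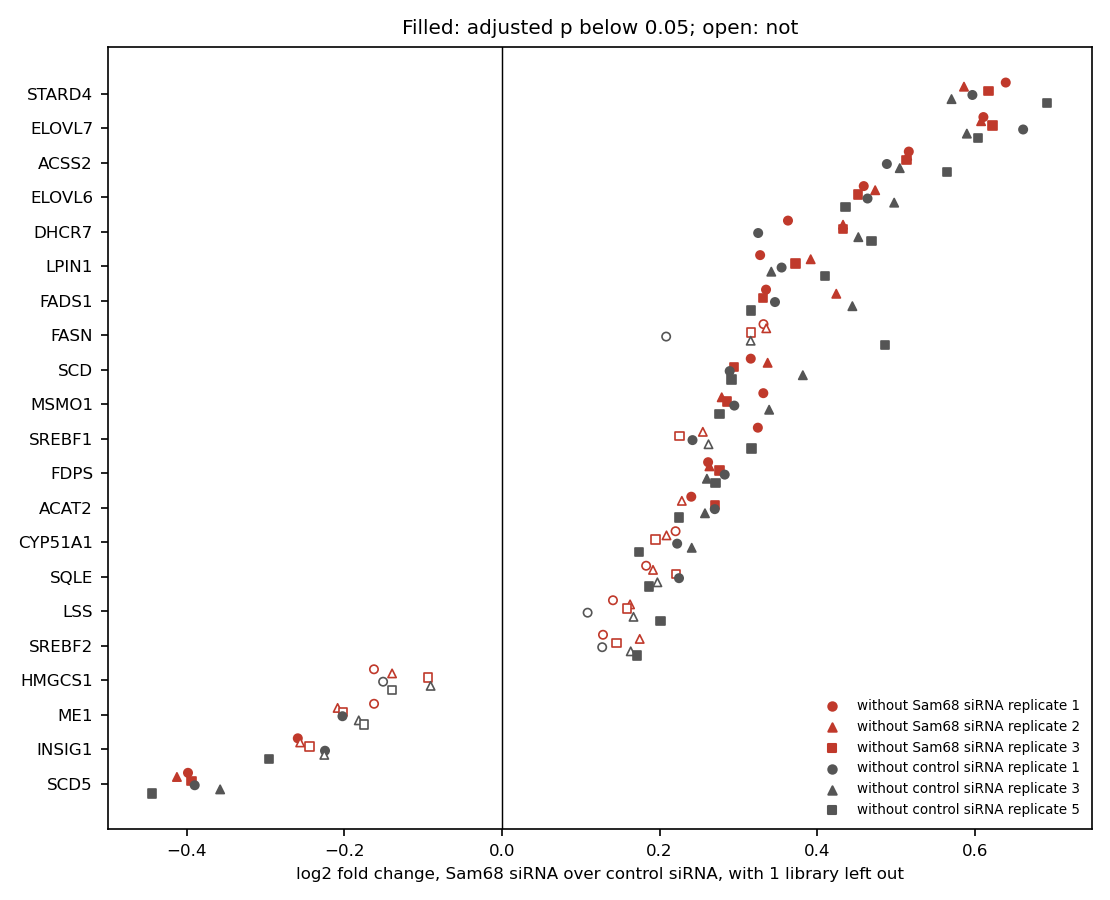
Log2 fold change (x axis) of the 17 called members and of FASN, SREBF2, LSS and HMGCS1 with 1 library left out, 6 symbols a gene (red: a Sam68 siRNA library left out; grey: a control); filled symbols have an edgeR adjusted p below 0.05. No symbol crosses 0, and FASN shifts most among these genes, to 0.49 without control 5 and to 0.21 without control 1.

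In the authors' deposited table, with a test it does not name, 7 sterol members rose and 1 fell at an FDR below 0.05, and 5 fatty acid members rose and 1 fell. All 14 of these were called in the same direction here. The authors' deposited table gave an FDR of 0.241 for SCD, 0.203 for SREBF1 and 0.0602 for ME1, which were called here. Its log2 fold change for SCD was 0.32, like the 0.32 found here.

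Genes around the branches were read from lists of known pathway members. Of 14 genes listed under SREBP processing and sterol sensing, all tested, 4 rose and none fell by edgeR (28.6% and 0%, median log2 fold change 0.18). Over all tested genes 9.33% rose and 9.76% fell. The list also holds SP1 and the NF-Y genes NFYA, NFYB and NFYC, which act at promoters. At an unadjusted p below 0.05, 7 were higher and 0 lower. NFYC and SP1 were among these 7, and neither passed the adjusted threshold. DESeq2 called 4 rises and limma on log2(TPM + 1) 2, with 0 falls in each. With 1 library left out, 2 to 4 rose (4 without control 5), and ERLIN1 lost its call without Sam68 siRNA library 2 or 3 (up to an adjusted p of 0.0616). PGRMC1, also among the 4 (log2 fold change 0.25, edgeR adjusted p = 0.0380), lost its call without any 1 of the Sam68 siRNA libraries (up to 0.151). It also lost it without control 5 (edgeR adjusted p = 0.0716), so the 4 called without control 5 are not the same genes. MBTPS1, the site-1 protease that makes the first cut in SREBP, averaged 196 ± 5.82 CPM with the Sam68 siRNA and 148 ± 3.76 CPM with the control siRNA (SD, n = 3 each; log2 fold change 0.40, SE 0.05, edgeR adjusted p = 0.000534). ERLIN2 and ERLIN1, endoplasmic reticulum proteins that bind cholesterol and restrain SREBP, had log2 fold changes of 0.40 and 0.36 (edgeR adjusted p = 0.00125 and 0.0150). Of 16 tested genes of sterol transport, storage and efflux, 2 rose and 2 fell (12.5% each, near the shares over all genes; median -0.03), with 0 to 3 each way when 1 library was left out (3 and 3 without control 5). TMEM97, the sigma-2 receptor and an SREBP target, averaged 45.1 ± 1.28 CPM with the Sam68 siRNA and 34.2 ± 4.17 CPM with the control siRNA (log2 fold change 0.40, SE 0.09, edgeR adjusted p = 0.0101). CH25H, which makes 25-hydroxycholesterol, an oxysterol that blocks SREBP processing, had 2.11, 2.08 and 2.18 CPM in Sam68 siRNA libraries 1, 2 and 3, against 1.36, 0.948 and 0.693 CPM in control libraries 1, 3 and 5 (log2 fold change 1.08, SE 0.28, edgeR adjusted p = 0.0199). It was higher in all 3 Sam68 siRNA libraries at 11 to 36 counts a library. MYLIP, a ubiquitin ligase for lipoprotein receptors and a known target of LXR, fell by 0.28 on the log2 scale (edgeR adjusted p = 0.0311). TMEM97 lost its call without Sam68 siRNA library 2, CH25H without any 1 of the Sam68 siRNA libraries or control 3, and MYLIP without Sam68 siRNA library 1 or 3 or control 3 (adjusted p up to 0.0515, 0.0775 and 0.121). Of 14 tested genes listed under other fatty acid elongation and activation enzymes, 2 rose and 1 fell (14.3% and 7.14%, against 9.33% and 9.76% of all genes). The list also holds SLC25A1, MID1IP1 and DEGS1, and OXSM, MCAT and MECR of mitochondrial fatty acid synthesis. HACD2 and TECR, which complete each elongation cycle, had log2 fold changes of 0.24 and 0.20, and the synthetase ACSL5 one of -0.19 (edgeR adjusted p = 0.0204, 0.0362 and 0.0277). With 1 library left out in turn, 0 to 2 were called higher and 0 to 1 lower, with 0 of each without Sam68 siRNA library 2 or 3.

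**Figure D5:**
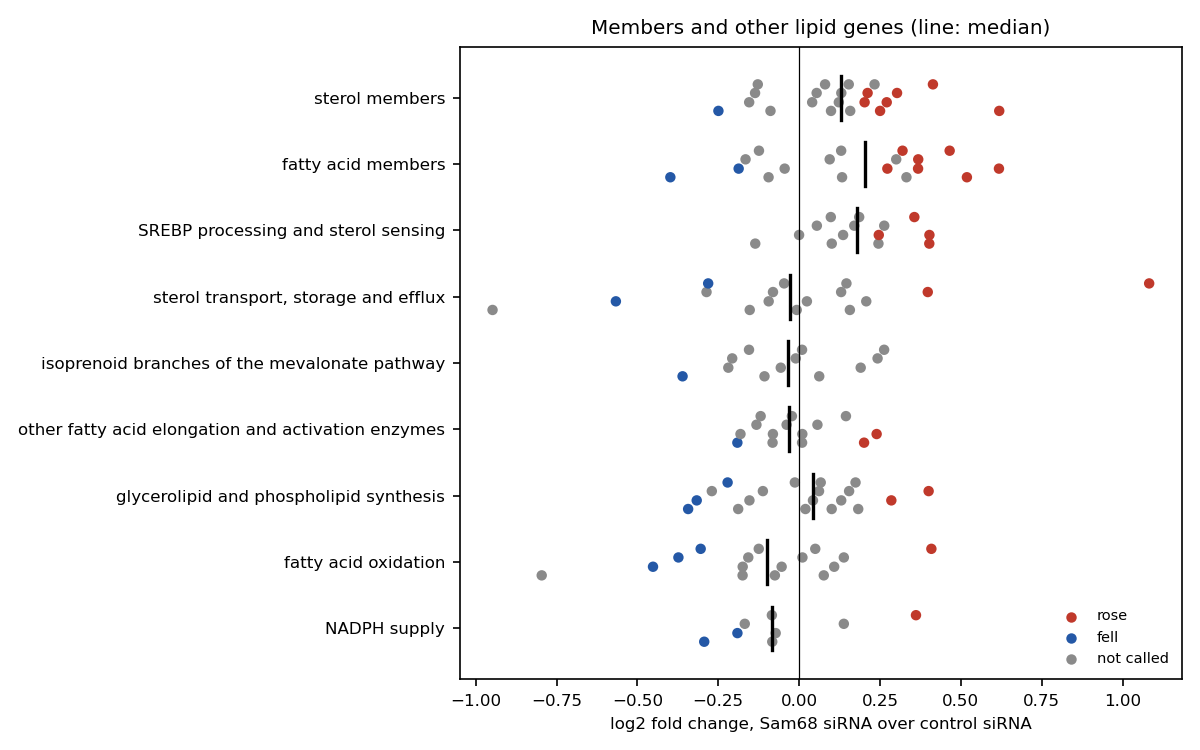
Log2 fold change (Sam68 siRNA over control siRNA, x axis) of tested genes in both branches and in 7 lists of related lipid genes (rows), with red for rose, blue for fell, grey for not called and a black line at the median. Medians are 0.13 and 0.20 for the sterol and fatty acid members. That of the list of SREBP processing and sterol sensing, which includes NF-Y and SP1 genes, is 0.18. The other 6 lists have medians from -0.10 to 0.04.

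Earlier work on these data had singled out the heptamers GCAGTAC and ACTGATT in 3′ UTRs, and members were searched for both in GENCODE 29 transcripts. GCAGTAC was in 1 of 39 members, MSMO1, where it was in 4.68% of the 12022 tested genes with a 3′ UTR. ACTGATT was in 4 of 39, ACACA, ACSL4, FADS1 and SC5D, where it was in 13.8% of all. MSMO1 and FADS1 rose and the other 3 were not called. Of the 563 tested genes with GCAGTAC, 169 rose and 28 fell. Of the 1654 with ACTGATT, 115 rose and 249 fell. Over all tested genes 9.33% rose and 9.76% fell. Both heptamers were singled out in these same data, so these counts are not independent of that choice. The part of either heptamer in the changes of the members was not tested. The sites of the genes that rose are shown 5′ to 3′ with the heptamer in capitals, at hg38 chr4:165342848-165342854 in exon 6 of MSMO1 and chr11:61801559-61801565 in exon 12 of FADS1.
MSMO1: ttgattgcagtGCAGTACtggcatttctg
FADS1: atcctggaaccACTGATTttggtttattc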

How the data were processed

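The deposited table holds, per the file headers, raw counts and TPM values for each library that the authors made, on genome build hg38 per the submitters' processing notes. Their own comparison gave, per the file headers, a log2 fold change, a p-value and an FDR per gene. The aligner, counter, strand setting and annotation release were not given in the sources used here. A further 12 columns of per-library values were not used.

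Counts were tested with edgeR 4.0.16 in R 4.3.3 over the whole table (filterByExpr with minimum count 10 and minimum total 15, TMM scaling, robust quasi-likelihood F-test, Benjamini-Hochberg adjustment over 12351 genes). Genes with an adjusted p below 0.05 are called, and levels are CPM after TMM scaling. The tested members had 104 to 40539 counts in a library. The step was tested on simulated data. Members, lists and the naming rule were chosen with earlier results of these data known: called members and a few regulators are given in every library, and up to 3 called genes of each other list by smallest p.

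Alternatives were RLE and upper-quartile scaling, no filter, at least 50 counts in 3 libraries, DESeq2 1.42.0, limma 3.58.1 on log2(TPM + 1) or log2(TPM + 0.1) with TPM filtered at 1 or not, the replicate block, and each library left out. Promoters are from RefSeq (GRCh38.p14) and 3′ UTRs from GENCODE 29, read with Python 3.11.15.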

Additional observations from a re-analysis of the deposited data

How the results depend on the processing

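Across all genes 2358 were called, against 1112 to 2666 with 1 library left out (1537, 1112 and 1195 without Sam68 siRNA libraries 1, 2 and 3), 1046 with the replicate block, and 1563, 1556 and 973 by limma on log2(TPM + 1), on log2(TPM + 0.1) and on log2(TPM + 1) with no filter. Sterol members that rose numbered 7, with 4 to 9 when 1 library was left out (4 without Sam68 siRNA library 2), 2 with the replicate block and 4 by limma with no filter. The 1 sterol member that fell became 0 to 2 with 1 library left out and 0 in the 3 limma fits. The 2 fatty acid members that fell became 1 to 2 with 1 library left out, 1 with the replicate block and 1 in the 3 limma fits; the cause of these differences was not tested. Fatty acid members that rose stayed within 1.5 times 7 in each of these fits. RLE, upper-quartile scaling, the filters and DESeq2 kept each of these counts within that range. For single members, 41 gene-level values lost their call and 8 gained one over these fits, and no called member changed sign. FASN gained its call with the replicate block (log2 fold change 0.50) and by DESeq2 (0.33). The block fit takes the group difference only from libraries whose number occurs in both groups. Control 5 and Sam68 siRNA library 2 add nothing to it. Its call of FASN is thus not separate from the call without control 5 (log2 fold change 0.49), and its lower counts of called genes rest on fewer libraries. Only replicate numbers 1 and 3 occur in both groups, and same-numbered libraries deviated together by a correlation of -0.0996 and 0.0835. Whether equal numbers mark a pair is not labelled, and with so few libraries these values cannot show it either way. Depth was alike across libraries, and ACACB, at 2 to 6 counts, was too shallow to test.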

Other observations

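In the lists given here, 0% to 12.5% of the tested genes rose and 8.33% to 25.0% fell. Over all tested genes 9.33% rose and 9.76% fell. Of 12 genes of the isoprenoid branches of the mevalonate pathway, none rose by edgeR's quasi-likelihood test and 1 fell; at an unadjusted p below 0.05, 0 were higher and 3 lower, and DESeq2 called 0 rises and 1 fall. NUS1, a subunit of the enzyme that makes dolichol for protein glycosylation, averaged 117 ± 3.33 CPM with the Sam68 siRNA and 151 ± 6.53 CPM with the control siRNA (SD, n = 3 each; log2 fold change -0.36, SE 0.06, edgeR adjusted p = 0.00123). Of 19 genes of glycerolipid and phospholipid synthesis, 2 rose and 3 fell (10.5% and 15.8%; median 0.04). PEMT, which methylates phosphatidylethanolamine to phosphatidylcholine, averaged 24.4 ± 2.55 CPM with the Sam68 siRNA and 18.5 ± 0.204 CPM with the control siRNA (log2 fold change 0.40, SE 0.09, edgeR adjusted p = 0.0113). PCYT1A, which controls the main route to phosphatidylcholine, and CDS1, which makes CDP-diacylglycerol, had log2 fold changes of -0.22 and -0.32 (edgeR adjusted p = 0.0249 and 0.0271).

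Of 16 tested genes of fatty acid oxidation, 1 rose and 3 fell (6.25% and 18.8%; median -0.10). ECHS1, the enoyl-CoA hydratase of mitochondrial oxidation, had 87.9, 91.4 and 86.5 CPM in Sam68 siRNA libraries 1, 2 and 3, against 116, 114 and 114 CPM in control libraries 1, 3 and 5 (log2 fold change -0.37, SE 0.06, edgeR adjusted p = 0.00119). HADH, the dehydrogenase at the next step of the same cycle, had 38.0, 40.8 and 42.8 CPM with the Sam68 siRNA, against 29.5, 32.9 and 29.2 CPM in controls (log2 fold change 0.41, SE 0.08, edgeR adjusted p = 0.00537). The groups were apart in both, in opposite directions. Of 8 genes listed from pathways that supply NADPH, 1 rose and 2 fell (12.5% and 25.0%). MTHFD1, of the folate cycle, had a log2 fold change of 0.36 (edgeR adjusted p = 0.00233). PGLS and TALDO1, of the pentose phosphate pathway, had values of -0.29 and -0.19 (edgeR adjusted p = 0.0143 and 0.0389). With 1 library left out in turn, a reading added after the data were seen, glycerolipid genes gave 0 to 4 rises and 0 to 4 falls (4 and 4 without control 5), oxidation genes 1 rise and 1 to 4 falls (4 without control 5), NADPH genes 1 rise and 0 to 2 falls, and isoprenoid genes 0 to 1 rise (1 without control 5) and 1 fall. NUS1, ECHS1, HADH and MTHFD1 were called in all 6 of those fits, and PEMT, PCYT1A, CDS1, PGLS and TALDO1 were not. None of these lists was tested as a list, and overlaps with other genes were checked for the 40 synthesis genes alone.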
